A study of Mus musculus with 4 samples.

Results

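Bdnf, Gfra1 and Mdk are a neurotrophin, a co-receptor for a neurotrophic factor and a heparin-binding growth factor, described here in cultured vascular smooth muscle cells (VSMC), which form the contractile layer of arteries. They were chosen by the measured difference between the study's pair of cell samples, so that difference is given as a description without a test. Each gene had 1 probe set, a group of array probes summarised to 1 value, and the 3 stand among 1246 probe sets in all, 962 of which carry a gene symbol. The data were 4 expression arrays of VSMC from wild-type mice, all grown in osteogenic medium, which drives the cells towards a bone-like state. On 2 arrays the cells had also received 0.4 mM streptozotocin, a nitrosourea that carries a glucosamine group, and on the other 2 they had not. Titles name a pair of cell samples, WT2 (replicate 1) and WTA (replicate 2), each with 1 array in either arm, and they are called cultures in the text. All 4 titles also carry the mark 3w, which the labels do not explain. They say neither what the culture names stand for nor whether they are separate animals, and p-values therefore measure only the spread between these arrays. The design text asks how genes of sugar-chain synthesis respond to streptozotocin while VSMC calcify.

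Neurotrophins such as Bdnf (brain-derived neurotrophic factor) are secreted proteins that support the survival and growth of neurons, acting through Trk receptor kinases and the p75 receptor. In the vessel wall, smooth muscle cells are known to make neurotrophins too. Gfra1 is a co-receptor held to the membrane by a lipid anchor: it binds glial cell line-derived neurotrophic factor (Gdnf) and presents it to the receptor kinase Ret. Mdk, midkine, is a growth factor that binds heparin and chondroitin sulfate chains and acts through several cell-surface proteins, among them syndecans and a receptor phosphatase, Ptprz1. It is abundant in embryonic tissue and is induced in injured adult tissue.

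For orientation, 120 bases next to a transcript start are shown for the genes with an entry in the RefSeq promoter table (build GRCm38.p6). The table held 7 start windows for Bdnf and 1 for Gfra1, and the arrays measured no binding or methylation there. Of the Bdnf windows the one shown is the only one with a half-site of the cyclic AMP response element. Capitals mark E-boxes (CANNTG) and that half-site (TGACG), on either strand, and both sequences run 5′ to 3′ in the direction of the gene, ending at the base before the start.
Bdnf, chr2:109692316-109692435, plus strand: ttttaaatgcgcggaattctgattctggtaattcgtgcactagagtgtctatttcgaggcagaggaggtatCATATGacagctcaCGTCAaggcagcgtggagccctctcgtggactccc
Gfra1, chr19:58455399-58455518, minus strand: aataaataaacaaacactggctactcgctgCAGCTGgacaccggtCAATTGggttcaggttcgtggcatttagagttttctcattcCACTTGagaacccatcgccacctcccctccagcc

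In the Bdnf window the E-box began 49 bases and the half-site 35 bases before the start, and in the Gfra1 window the 3 E-boxes began 90, 75 and 34 bases before it. Over the full 250 bases upstream, 6 of the 7 Bdnf windows and the Gfra1 window held an E-box, which 66.2% of the 32851 windows of the table also held. The half-site was in 1 of 7 Bdnf windows and in 17.8% of all windows. The Runx core (TGTGGT) was searched because the design text names Runx2, a transcription factor of bone formation. It was in 0 of 7 Bdnf windows and not in the Gfra1 window, against 14% of all windows. The TATA box (TATAAA, 12.4% of all windows) and the CArG box of smooth muscle genes (1.47%) were in none of these 8 windows. Such matches describe letters in 1 window each and not sites of binding.

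The 3 genes were well separated between the cultures, Bdnf towards WTA and Gfra1 and Mdk towards WT2. Bdnf, the neurotrophin, had log2 values of 6.41 (control) and 7.04 (streptozotocin) in WT2, and of 8.26 and 8.45 in WTA. Both WTA arrays thus lay above both WT2 arrays, and the untreated WT2 cells had the lowest value. The mean was 6.72 ± 0.44 in WT2 and 8.36 ± 0.14 in WTA (SD, n = 2 each), a difference of 1.63 or 3.10-fold. Gfra1, the Gdnf co-receptor, ran the other way. Its log2 values were 8.60 (control) and 8.21 (streptozotocin) in WT2, and 6.82 and 6.23 in WTA. Both WT2 arrays were higher than both WTA arrays, and WTA cells with streptozotocin had the lowest value. The means were 8.41 ± 0.28 in WT2 and 6.53 ± 0.41 in WTA (SD, n = 2 each), WTA being lower by 3.68-fold (log2 difference -1.88).

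Midkine had the widest gap of the 3. Mdk stood at 9.96 (control) and 9.88 (streptozotocin) on the log2 scale in WT2, and at 7.66 and 7.49 in WTA. The arrays of a culture lay within 0.17 of each other, and the cultures did not overlap. With means of 9.92 ± 0.06 in WT2 and 7.58 ± 0.12 in WTA (SD, n = 2 each), the log2 difference was -2.34, a level 5.07-fold lower in WTA. This was the most negative difference of all 1246 probe sets. Gfra1 held rank 4 from that end, and Bdnf held rank 11 among the positive differences.

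**Figure D1:**
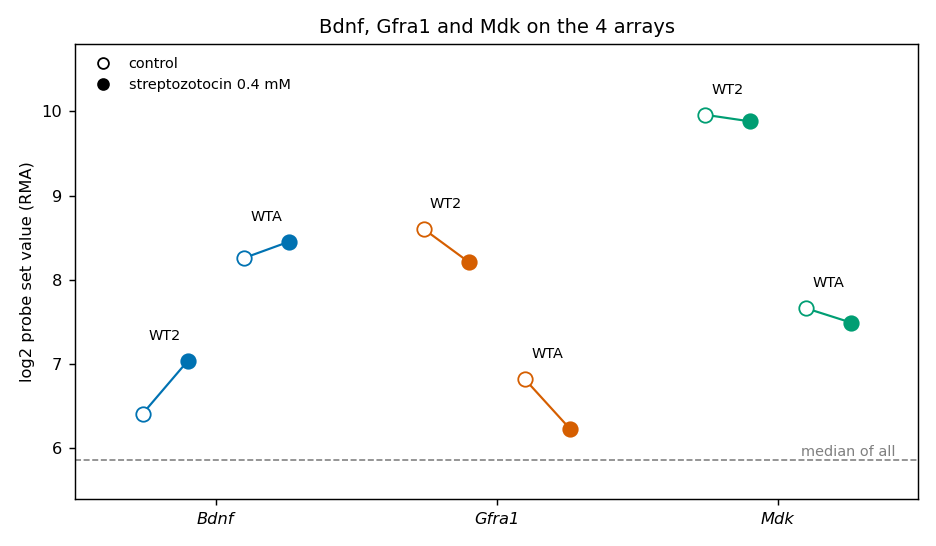
Log2 probe set value (vertical axis) of Bdnf, Gfra1 and Mdk on each of the 4 arrays, with open points for control and filled points for 0.4 mM streptozotocin, and a line joining the 2 arrays of a culture. Bdnf lies higher in WTA, Gfra1 and Mdk lie higher in WT2, and all 12 points lie above the median of all values (dashed, 5.86).

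Since the cultures did not overlap for any of the 3 genes, and since this separation is what chose them, it is set beside the same count over the array. Among all probe sets, 21.3% had both WTA arrays above both WT2 arrays and 27.7% had both below. For the other genes named in the text, the culture was tested in limma's fit with treatment and culture over all probe sets, in which 1.44% were called higher in WTA at an adjusted p under 0.05 and 0.803% lower. That count moved with the processing: 28 probe sets were called in all, 8 after quantile normalization, and 2 in a separate fit of the 624 probe sets brighter than the median. A fit with the culture alone called 13, 0 when either WTA array was left out, and 12 and 18 without the control and the streptozotocin array of WT2.

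The gap was present in both arms. In control cells WTA minus WT2 was 1.85 for Bdnf, -1.78 for Gfra1 and -2.30 for Mdk on the log2 scale. With streptozotocin it was 1.42, -1.98 and -2.39. Bdnf was therefore 3.60-fold higher in WTA without streptozotocin and 2.67-fold higher with it. For Mdk the fold was 4.91 without and 5.24 with the compound, and for Gfra1 3.44 and 3.94, each lower in WTA. Whether the gap itself changed with the compound could not be tested, because a fit with that term leaves no residual degrees of freedom.

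**Figure D2:**
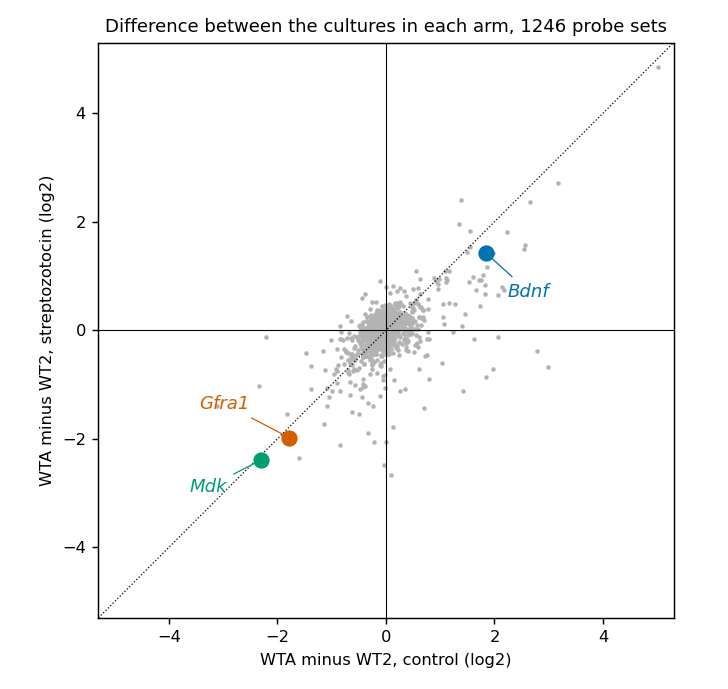
WTA minus WT2 on the log2 scale in control arrays (horizontal axis) and in streptozotocin arrays (vertical axis) for each of 1246 probe sets, with Bdnf, Gfra1 and Mdk in colour and the dotted line marking equal differences. Gfra1 and Mdk lie close to that line at the negative end, and Bdnf lies below it, at 1.85 in control and 1.42 with streptozotocin.

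Streptozotocin against control is the contrast that the labels name, while the choice of the 3 genes rested on the culture difference. None of the 3 passed the test. Bdnf stood higher with the compound in each culture, by 0.63 in WT2 and 0.19 in WTA on the log2 scale. Gfra1 stood lower in each, by -0.39 and -0.59. Mdk differed by -0.08 and -0.17, the smallest of these differences.

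For Bdnf the mean log2 value was 7.74 ± 1.00 with streptozotocin and 7.33 ± 1.31 without (SD, n = 2 each). The arms overlapped, and the treated array of WT2 lay below the untreated array of WTA. In limma's fit the difference was 0.41 (SE 0.86, 95% interval -2.07 to 2.89, adjusted p = 1). Gfra1 had 7.22 ± 1.40 with streptozotocin and 7.71 ± 1.26 without (SD, n = 2 each), again with overlapping arms. Its difference was -0.49 (SE 0.99, interval -3.32 to 2.34, limma adjusted p = 1). Mdk had 8.69 ± 1.69 with streptozotocin and 8.81 ± 1.62 without (SD, n = 2 each), a difference of -0.12 (SE 1.22, interval -3.64 to 3.39, limma adjusted p = 1). These wide intervals hold the gap between the cultures, for which the genes were chosen. A fit of the same test with the culture as a replicate block gave SEs of 0.15 for Bdnf, 0.11 for Gfra1 and 0.10 for Mdk. The 95% intervals were then -0.01 to 0.82, -0.79 to -0.19 and -0.40 to 0.15, and the limma adjusted p-values 0.738, 0.625 and 0.916. The intervals are not adjusted for the number of probe sets, and that of Gfra1 alone left out 0. The unadjusted limma p-values with the block were 0.0520, 0.0117 and 0.270. Across the array, 0% of the 1246 probe sets were called at an adjusted p under 0.05 (0 without and 0 with the block). At an unadjusted p under 0.05 limma gave 25 and 80.

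Leaving out 1 array turned the direction for each gene: the difference ran from -0.51 to 1.33 for Bdnf, from -1.48 to 0.50 for Gfra1 and from -1.32 to 1.07 for Mdk. The turns came without the WT2 control array and without the WTA streptozotocin array. Any omission leaves the cultures unequally represented in the arms, so these values hold the culture gap as well. Within a culture that gap is absent, and the sign was the same in both for all 3 genes. Of all probe sets, 22.6% were higher with streptozotocin in both cultures, as Bdnf was, and 28.5% lower in both, as Gfra1 and Mdk were, while 47.7% had opposite signs. A shared sign is thus common on this array.

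The sizes within a culture rest on 1 array per arm and have no test. In WT2, Bdnf was 1.54-fold higher with streptozotocin, and 6.66% of probe sets differed by at least as much in either direction. In WTA it was 1.14-fold higher, a size that 25.9% of probe sets reached. Gfra1 was 1.31-fold lower in WT2 (reached by 14.5%) and 1.502-fold lower in WTA (reached by 2.33%). For Mdk the folds were 1.06 and 1.13, which 66.4% and 30.7% of probe sets reached. At a fold of at least 1.5, Bdnf alone passed in WT2, where 7.3% of all probe sets did, and Gfra1 alone in WTA, where 2.33% did. Quantile normalization took Bdnf in WT2 to 0.46 and Gfra1 in WTA to -0.55, and median centring took the latter to -0.55, all under that fold. WT2 differences were wider over the array than WTA differences (SD over probe sets 0.402 and 0.220), and untreated WT2 cells correlated least with the WTA arrays (0.977 and 0.982).

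**Figure D3:**
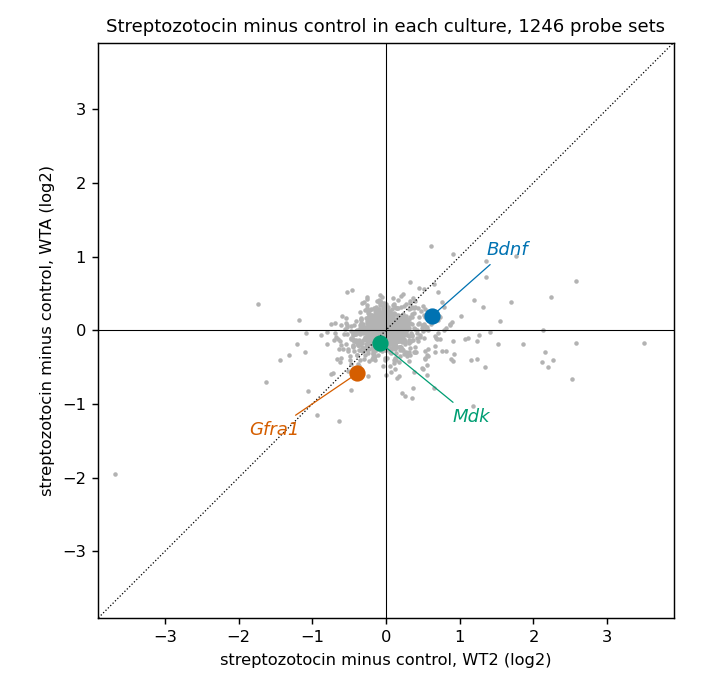
Streptozotocin minus control on the log2 scale in WT2 (horizontal axis) and WTA (vertical axis) for each of 1246 probe sets, with Bdnf, Gfra1 and Mdk in colour and the dotted line marking equal differences. Bdnf lies at 0.63 and 0.19, Gfra1 at -0.39 and -0.59 and Mdk near the origin at -0.08 and -0.17.

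The neighbours of the 3 genes in their signalling systems were taken from lists of ligands, receptors and binding partners, of which 19 genes are described, the 3 included. At an unadjusted p under 0.05, limma's fits held 1 of the 16 others for streptozotocin (Gdnf) and 4 for the culture. Over all 1246 probe sets they held 25 and 210. After adjustment 0 of the 16 passed for streptozotocin and 0 for the culture. Both counts were also 0 in each alternative fit that was run, of which the filter on dim probe sets kept 8 of the 16. Over these 16 the median log2 difference was 0.05 for streptozotocin minus control and -0.09 for WTA minus WT2. Over all probe sets it was -0.01 and -0.02.

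On the neurotrophin side Bdnf stood alone here. It was the 1 gene described of the 8 neurotrophins and receptors listed, and the Trk receptors and p75 were not among the named probe sets, so the receptor side of Bdnf is not described.

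Gdnf, the ligand that Gfra1 binds, was dim. Its log2 values of 4.26 (WT2 control), 4.61 (WT2 streptozotocin), 4.43 (WTA control) and 4.74 (WTA streptozotocin) lay below the array medians. It stood higher with streptozotocin by 0.35 in WT2 and 0.32 in WTA, opposite in sign to Gfra1 (limma adjusted p = 1, and 0.711 with the replicate block). Between the cultures it differed by 0.15. Pspn, persephin, a further ligand of the family, differed by -0.05 between the cultures and by -0.03 with streptozotocin.

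The other co-receptors of that family had smaller differences between the cultures than Gfra1. Gfra3, the co-receptor of artemin, differed by -0.005 between the cultures (limma adjusted p = 0.982). Gfra2, the co-receptor of neurturin, had 1 value that stood apart, 5.70 in WT2 control against 4.62 to 4.81 elsewhere, and differed by -0.60 (adjusted p = 0.333). These values lay below the array medians. The identifier of their probe set ends in x_at, a mark of probes that may also match other sequences. The dimmer second probe set of Gfra2 differed by -0.18. Of 5 measured genes in this list of 12, the 4 other than Gdnf had negative streptozotocin differences in WT2 and in WTA, none past the test. Ret was not among the named probe sets.

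For midkine the measured partners were mostly proteoglycans and receptors, 8 of them beside Mdk from a list of 17. Sdc1, Sdc3 and Sdc4 are syndecans, cell-surface proteins whose heparan sulfate chains bind midkine. Sdc3 differed by -0.41 between the cultures, Sdc1 by -0.27 and Sdc4 by 0.18, none past limma's test (adjusted p = 0.160, 0.295 and 0.488). All 3 stood higher with streptozotocin in both cultures, again without passing. In WT2 and WTA the differences were 0.27 and 0.36 for Sdc4, 0.23 and 0.21 for Sdc1 and 0.23 and 0.12 for Sdc3. Mdk had the opposite sign, but its differences (-0.08 and -0.17) were of sizes that 66.4% and 30.7% of probe sets reached. Notch2, a receptor that midkine has been reported to engage, was lower in WTA by -0.74, the smallest adjusted p of the 16 others (limma adjusted p = 0.0702).

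Versican, a chondroitin sulfate proteoglycan of the vessel wall, had the widest spread of the partners. Vcan stood at 10.42 (control) and 11.57 (streptozotocin) in WT2 and at 10.08 and 9.68 in WTA. Its streptozotocin difference was 1.15 in WT2 and -0.40 in WTA, and its culture difference was -1.12 (SE 0.41, limma adjusted p = 0.319). Ptprz1, the receptor phosphatase, and Ncan, a brain proteoglycan, were dim, between 3.73 and 4.48 on every array. For Gpc2, a glypican, streptozotocin minus control was -0.23 in WT2 and -0.42 in WTA. Pleiotrophin, the close relative of midkine, was not among the named probe sets.

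A last list held neurotrophic cytokines and neuregulin receptors, with 4 of 18 genes measured. Il6st, the gp130 chain shared by ciliary neurotrophic factor and interleukin 6 family receptors, was higher in WTA by 0.83 (limma adjusted p = 0.160). With streptozotocin it differed by 0.33 in WT2 and -0.34 in WTA. Cntfr, Erbb3 and Erbb4 differed by -0.08, -0.10 and -0.12 between the cultures, the latter 2 at values below 5 on every array.

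**Figure D4:**
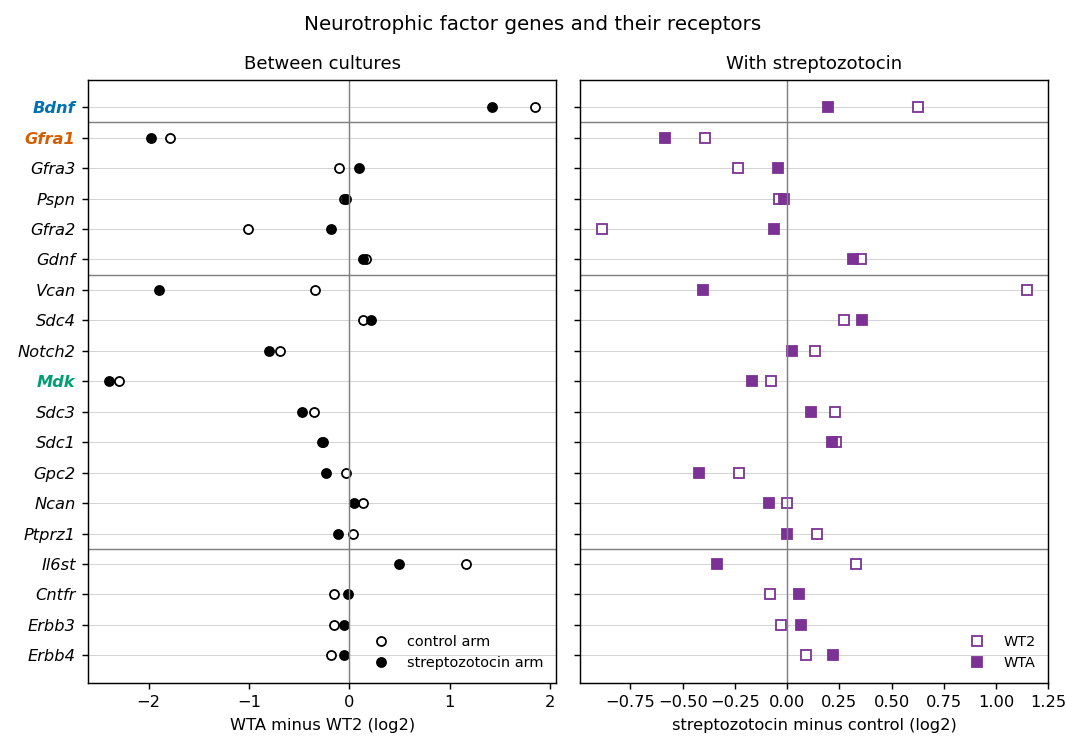
Log2 differences (horizontal axes) of the 19 genes described from the 4 lists (rows, with lines between the lists): WTA minus WT2 in each arm on the left, streptozotocin minus control in each culture on the right. Bdnf, Gfra1 and Mdk are in colour, and on the left Gfra2, Gfra3 and the syndecans lie nearer 0 than Gfra1 and Mdk.

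The genes whose pattern was closest to each of the 3 were found by the root mean square distance between log2 values, each gene taken relative to its own mean over the 4 arrays, among 907 other genes. Closest to Bdnf was Bmp8a, a bone morphogenetic protein, at a distance of 0.048. Its log2 values were 5.47 and 6.21 in WT2 and 7.44 and 7.62 in WTA (control, then streptozotocin). Next came Hs6st2, an enzyme that adds sulfate to heparan sulfate, at 0.160, and Il15, a cytokine of lymphocytes, at 0.178. Closest to Gfra1 were Clec11a, a secreted growth factor of bone, at 0.156, then Mdk at 0.295 and Igf1, insulin-like growth factor 1, at 0.328. Like Gfra1, these 3 stood lower with streptozotocin in both cultures, as 28.5% of all probe sets did. In WT2 and WTA the differences were -0.64 and -1.23 for Igf1 and -0.67 and -0.38 for Clec11a. Closest to Mdk were Gfra1 at 0.295, Gdf10, a growth factor of the same superfamily as Bmp8a, at 0.323 and Clec11a at 0.396. The distance rests on 4 arrays and includes the culture gap for which the 3 genes were chosen. It also includes the streptozotocin differences, so a direction shared with a close gene is partly built in.

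**Figure D5:**
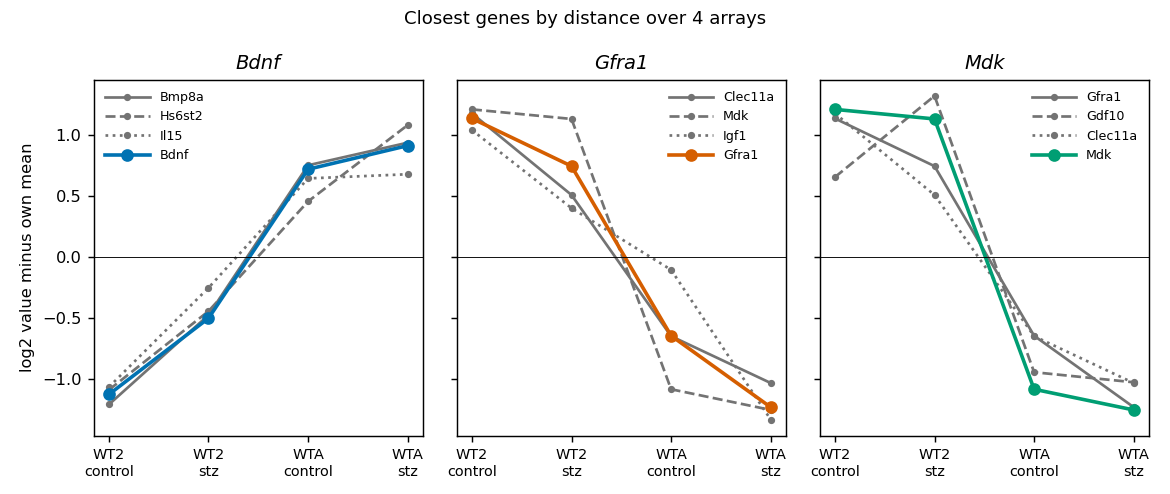
Log2 value minus the gene's own mean over the 4 arrays (vertical axis) for Bdnf, Gfra1 and Mdk (coloured) and the 3 closest genes of each (grey), by array (horizontal axis, where stz is streptozotocin); the lines join arrays only to guide the eye. Bmp8a follows Bdnf within 0.1 on every array, and the closest genes of Mdk depart from it further.

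Markers of cell types were read beside the culture gap. Of 9 smooth muscle markers 0 were measured, and 0 of 10 bone markers, so the labelled cell type could not be checked by them. Endothelial markers (7 of 12 measured) had a summed linear level (antilogs of the log2 values) of 1923 and 1945 in WT2. In WTA it was 2650 and 2775, higher as Bdnf was. The brightest genes weigh most in such a sum, here Cd34 in WT2 and Thbd in WTA. Thbd was higher in WTA by 1.33 (limma adjusted p = 0.104) and Emcn by 1.22 (limma adjusted p = 0.0873). Icam2 was lower by -0.19 (limma adjusted p = 0.491), so these 3 did not pass the test. Within that list Esm1 was higher in WTA by 4.93 (limma adjusted p = 0.00304), and by 2.93 in its dimmer second probe set (limma adjusted p = 0.0213). Neither passed when either WTA array was left out (limma adjusted p = 0.443 and 0.532). Cd34 was lower in WTA (-1.07, limma adjusted p = 0.0445), a call that was lost with quantile normalization (0.0695), in the fit of the brighter probe sets (0.0741), with the culture alone in the fit (0.200) and with each array left out in turn (0.110 to 0.789). Pecam1 and Sele of the same list lay between 3.14 and 3.997 on every array, below the lower quartile. Thbd (8.63 to 10.57) and Cd34 (8.93 to 10.46) were bright on every array. Fibroblast markers (3 of 9 measured: Dcn, Lum and Pdgfra) were bright on every array. They summed to 14217 and 10378 in WT2 and to 9306 and 7202 in WTA (control, then streptozotocin), lower in WTA as Gfra1 and Mdk were. None passed the test for the culture: Pdgfra differed by -0.82, Dcn by -0.43 and Lum by -0.23 (limma adjusted p = 0.0631, 0.156 and 0.761). With streptozotocin Lum was higher in WTA by 0.26. Neural and Schwann cell markers (5 of 15 measured) summed to 182 to 184 in WT2 and 189 to 195 in WTA, with 4 of 5 below the array median. Leukocyte and macrophage markers (8 of 15 measured) summed to 405 to 449 in WT2 and 420 to 496 in WTA. The part of these markers in the gap was not tested, and in such bulk samples a different share of a cell type and a different level per cell cannot be told apart.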

How the data were processed

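Total RNA was extracted with Trizol and cRNA was labelled with biotin following Affymetrix's protocol, per the labels' protocols. Values were deposited on the log2 scale, 1 per probe set and array, and were made by the authors with RMA, per the submitters' processing notes, with settings not given in the sources used here. By default RMA equalises the arrays' distributions, so a shift of most genes would not be seen, and dim values hold background. Array medians lay between 5.83 and 5.87, and precision is limited by having 4 arrays.

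Probe sets were named from the RefSeq accession in their identifier, without its version (GRCm38.p6 table, names only). The identifiers of Gfra1 and Mdk end in s_at, a mark of probes that can match several transcripts. A gene with several probe sets was taken from the brightest. Groups and cultures came from the sample titles. Limma 3.58.1 in R 4.3.3 (lmFit, eBayes) was run on all 1246 probe sets with Benjamini-Hochberg adjustment, once with treatment alone and once with treatment and culture. It was also tested on simulated data. For the streptozotocin test those data held no gap between the cultures, so they do not cover the fit with treatment alone on these arrays. A replicate number stands for 1 culture across the arms, and same-numbered arrays deviated together (correlation 0.600 over probe sets, a single value, since with 2 arrays per arm the second pair mirrors the first). The genes to name were Bdnf, Gfra1, Mdk, the measured genes of the lists and the 3 closest genes by distance. A further gene of the lists is not reported here. The genes and lists were chosen with earlier results of these data known. Alternatives tried were a replicate block, omission of each array, median centring, quantile normalization, an intensity trend, a filter on dim probe sets and the mean of a gene's probe sets.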

Additional observations from a re-analysis of the deposited data

Results flagged for a closer look

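In 4 of the 19 genes of the signalling lists the streptozotocin difference had opposite signs in the cultures, with 1 array per arm, and the difference between the cultures was not tested. For Vcan, versican, WT2 gave 1.15 and WTA gave -0.40. For Il6st, the gp130 receptor chain, the values were 0.33 and -0.34. The differences of Cntfr, -0.081 and 0.058, and of Erbb3, -0.029 and 0.068, were small. Among the other genes named, Gdf10 had 0.67 in WT2 and -0.083 in WTA, and the endothelial marker Emcn had 0.12 and -0.52. The dim endothelial markers had 0.035 and -0.078 for Pecam1 and -0.27 and 0.17 for Sele. Opposite signs were common: 47.7% of all probe sets had them, and so did 11 of the 23 measured cell type markers, among them all 8 of leukocytes and macrophages. Bdnf, Gfra1 and Mdk kept 1 sign in both cultures.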

How the results depend on the processing

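The streptozotocin fit called 0 probe sets under every alternative run, the replicate block included, which changed no call for Bdnf, Gfra1 or Mdk. Their streptozotocin differences kept direction except when 1 array was left out: they ran from -0.51 to 1.33 for Bdnf, -1.48 to 0.50 for Gfra1 and -1.32 to 1.07 for Mdk. Without the WT2 control array they were -0.51, 0.40 and 1.02, and without the WTA streptozotocin array -0.30, 0.50 and 1.07. Any omission leaves the cultures unequally represented in the arms, so these values hold the culture gap as well. The turns are therefore no test of the streptozotocin direction, which within each culture was the same for all 3 genes. The culture fit called 28 probe sets, 13 with the culture alone in the fit, 8 after quantile normalization, 2 in a separate fit of the 624 probe sets brighter than the median, and 0 to 18 with 1 array left out. The culture differences of the 3 genes kept their direction throughout, from 1.32 to 1.95 for Bdnf, -2.17 to -1.59 for Gfra1 and -2.43 to -2.26 for Mdk. Leaving out 1 array could not turn them, because the cultures did not overlap for these genes, which were chosen by this difference. The kept direction is therefore no test of the gap. Averaging the probe sets of a gene, run on the 4 signalling lists, left each list's medians unchanged. Only Gfra2 among the genes described from them had more than 1 probe set, so the other lists could not change. With 2 arrays per arm, dim genes such as Gdnf and Ptprz1 are limited by background.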
